A study of Arabidopsis thaliana with 9 samples.

Results

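The chloroplast genome of Arabidopsis thaliana was represented by 69 probe sets in this root data set, out of 22746 probe sets other than controls. A probe set was taken when the platform's annotation gave it to a single gene of the chloroplast genome, and each of the 69 probe sets stood for a different gene. The genes were grouped by their symbols as photosystem (psa and psb, 20 genes), NDH (ndh, 10 genes), cytochrome b6f (pet, 6 genes), ATP synthase (atp, 6 genes), ribosome (rps and rpl, 15 genes) and polymerase (rpo, 4 genes), which left 8 others. A further 8 probe sets were annotated to several chloroplast loci and were left out of the 69.

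The roots of 3 lines were profiled with 9 Affymetrix ATH1 arrays, 3 arrays a line. Col-0 (stock code N1092) is the wild type, and the lines labelled cngc1-3 and cngc19 are listed as T-DNA gene knock out lines in the Col-0 background, where T-DNA is bacterial DNA inserted into the plant genome. Per the labels, all 3 lines were treated alike: plants went from agar to hydroponics 18 days after germination, grew there for another 7 days until harvest on day 25 (stage 3.90), the roots of 20 to 30 plants being bulked into a tube. The series title names caesium toxicity, but no label mentions a caesium treatment. The labels do not say whether the 3 tubes of a line came from separate cultures, and the p-values below rest on differences between tubes alone, which may be technical. The annotation named no probe set for any of 20 CNGC family genes, so the line labels were not checked through CNGC1 or CNGC19.

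The chloroplast genome encodes core subunits of the photosynthetic machinery and part of the plastid's own gene expression apparatus, while most other chloroplast proteins are encoded in the nucleus and imported. Root plastids are mostly colourless and carry the same genome, whose photosynthesis genes are known to be expressed weakly there compared with leaves. Many plastid genes are transcribed together as operons by a bacterial-type polymerase whose core subunits are plastid genes (rpoA, rpoB, rpoC1 and rpoC2), or by imported phage-type polymerases. Stable plastid transcripts largely lack long poly(A) tails, and the one-cycle labelling named in the labels is usually primed with oligo(dT), so a signal of these genes reads only the plastid RNA that entered the labelling. In RNA of whole roots, fewer plastids and less RNA per plastid cannot be told apart.

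Signals below are the deposited MAS5 signal intensities, which have no unit and whose trimmed mean (2% taken off each end) was between 98.9 and 99.7 on every array. Signals are compared between arrays for the same gene and never between genes. Differences and deviations are on the log2(signal + 16) scale, which understates the change of dim probe sets.

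Col-0 replicates 2 and 3 stood apart from the other 7 arrays in measures that do not rest on the chloroplast genes. Their median signals were 63.9 and 66.3, against 32.0 to 42.2 on the other 7, and their spiked control signals were 17.3 and 6.92 times the median of the remaining arrays, against 0.673 to 1.38 times on the others. Over all 22746 probe sets, log2 signals of Col-0 replicate 1 correlated with those of Col-0 replicate 2 at r = 0.16 and with those of Col-0 replicate 3 at r = 0.508, and r was 0.308 between Col-0 replicates 2 and 3. Between Col-0 replicate 1 and cngc19 replicate 3 r was 0.963. With replicates 1 and 2 of its own line cngc19 replicate 3 correlated less closely, at r = 0.887 and 0.895. Between cngc19 replicates 1 and 2 r was 0.985. On cngc1-3 replicate 3 the 3'/5' ratios of actin and GAPDH, controls of RNA integrity, were 200 and 6.37, against at most 5.81 and 2.81 on the other 8 arrays. Both of these maxima were those of Col-0 replicate 3. The GAPDH ratio was 0.24 on Col-0 replicate 2, and 0.915 to 1.07 on the arrays not named here. The root marker PYK10, a beta-glucosidase of root ER bodies, gave 4398, 261 and 448 on Col-0 replicates 1 to 3 and 3762 to 5559 on the 6 mutant arrays. PYK10 was thus low on Col-0 replicates 2 and 3, the same arrays that stood apart. Of 41 root markers listed, 3 had a probe set, and their summed signal, most of it PYK10, was 721 and 507 on Col-0 replicates 2 and 3 and 4028 to 5773 on the other 7 arrays. The root hair expansins did not share this pattern on Col-0 replicate 2. EXPA7 gave 195, 318 and 28.6 on Col-0 and 23.01 to 121 on the mutant arrays, so that Col-0 replicate 2 was its highest array. EXPA18 gave 184, 142 and 30.3 on Col-0 and 130.2 to 180.1 on the mutant arrays, and was low on Col-0 replicate 3 alone. The results below are therefore given with and without these arrays.

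Chloroplast-genome genes were close to the middle of the signal range on 7 of the 9 arrays and far above it on Col-0 replicate 3. Their median signal was 60.6, 247 and 2884 on Col-0 replicates 1 to 3, 68.0, 54.7 and 22.0 on cngc1-3, and 34.6, 57.6 and 68.5 on cngc19. On Col-0 replicate 3 none of the 69 lay below the array's median, on Col-0 replicate 2 there were 10 below it, and on the other 7 arrays there were 28 to 47. The 69 genes made up 10.6% of the summed signal of Col-0 replicate 3 and 2.31% of that of Col-0 replicate 2, against 0.249% to 0.582% on the other 7 arrays. The part played in this by the spiked controls, the root markers and the nuclear photosynthesis genes that moved with it was not tested.

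**Figure D1:**
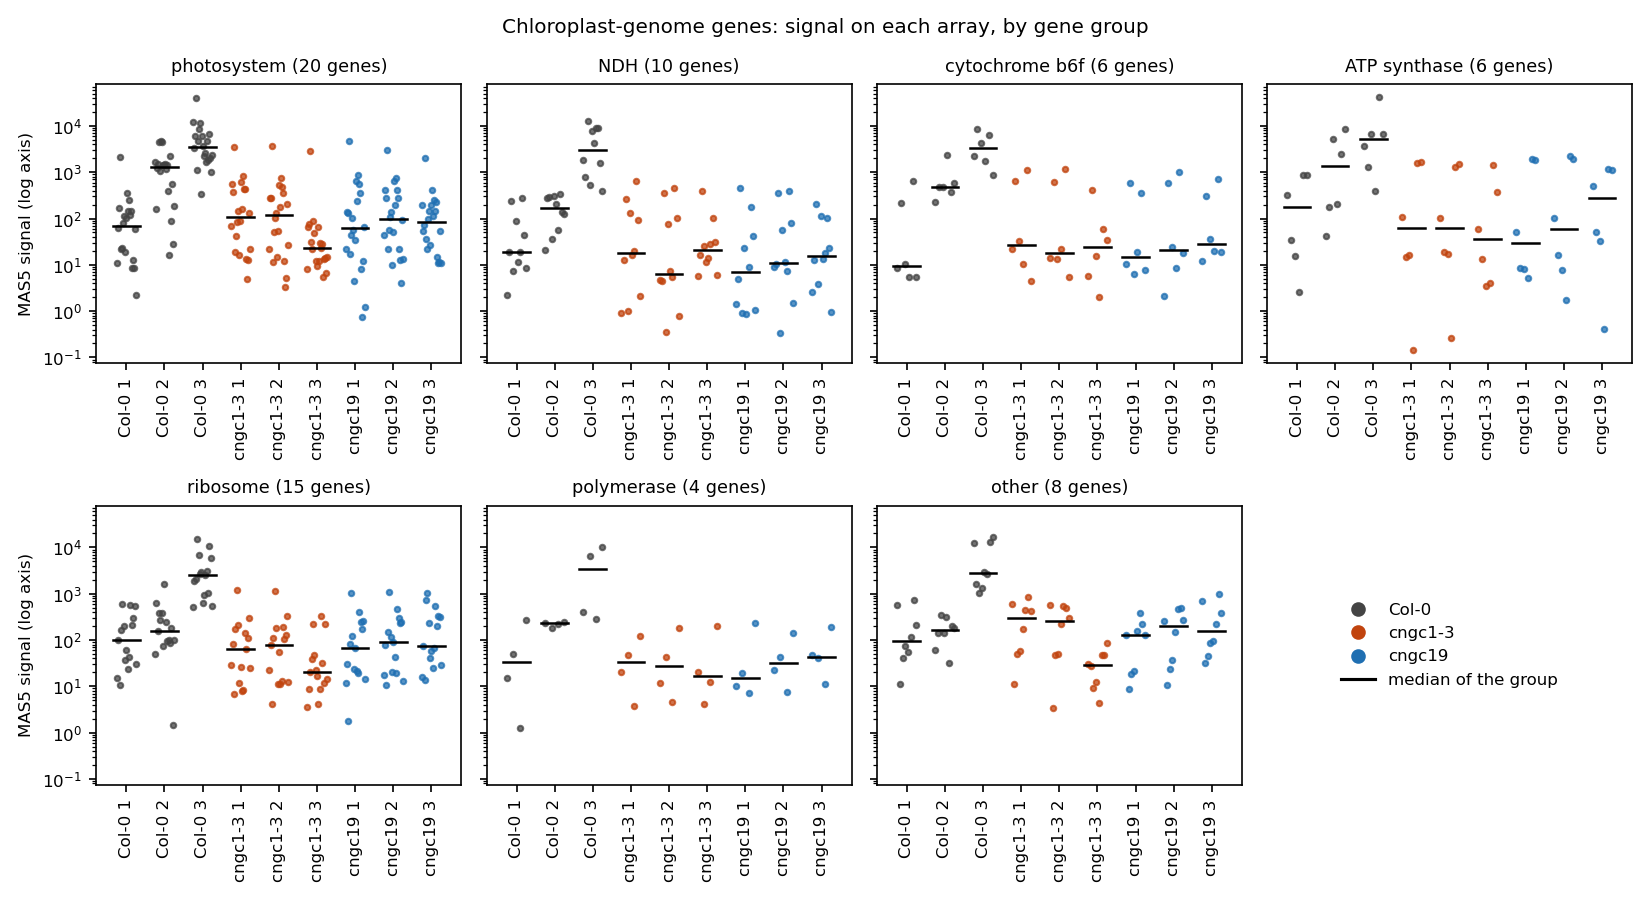
MAS5 signal (log axis) of each chloroplast-genome gene on each array, in a panel per gene group. Points are genes, coloured by line, and the black bar is the median of the group on that array. In all 7 panels the median sits highest on Col-0 replicate 3, and on cngc1-3 replicate 3 the photosystem, ribosome and other genes have their lowest median.

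Col-0 replicate 3 held the highest signal of the 9 arrays for 63 of the 69 genes, against 23.9% of all probe sets. All 69 were higher on Col-0 replicate 3 than on each of the 7 arrays outside Col-0 replicates 2 and 3, against 46.6% of all probe sets. Their deviation from the median of those 7 arrays ranged from 1.78 for psbF to 8.32 for psbA on Col-0 replicate 3, with a median of 4.85, where the median of all probe sets was 0.37. On Col-0 replicate 2 the deviation ranged from -4.19 for rpl32 to 7.40 for atpH, with a median of 1.73, where the median of all probe sets was 0.60. Both arrays were thus high for most chloroplast genes, with a wider range on Col-0 replicate 2. On Col-0 replicate 2, 48 of the 69 (69.6%) were higher than on each of the 7 arrays, against 51.7% of all probe sets.

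The medians of the gene groups spanned a range on both arrays. On Col-0 replicate 3 the group medians were 5.64 for cytochrome b6f, 5.07 for NDH, 4.97 for the photosystems, 4.89 for ATP synthase, 4.69 for the polymerase, 4.42 for the others and 4.24 for the ribosome. On Col-0 replicate 2 they were 3.58 for cytochrome b6f, 2.77 for the photosystems, 2.55 for ATP synthase, 2.26 for the polymerase, 1.49 for NDH, 1.27 for the ribosome and 0.26 for the others. Cytochrome b6f genes led on both arrays and ribosomal genes were near the bottom on both, while NDH genes ranked next to the top on replicate 3 but not on replicate 2. The differences between groups were not tested, as genes of an operon share transcripts.

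**Figure D2:**
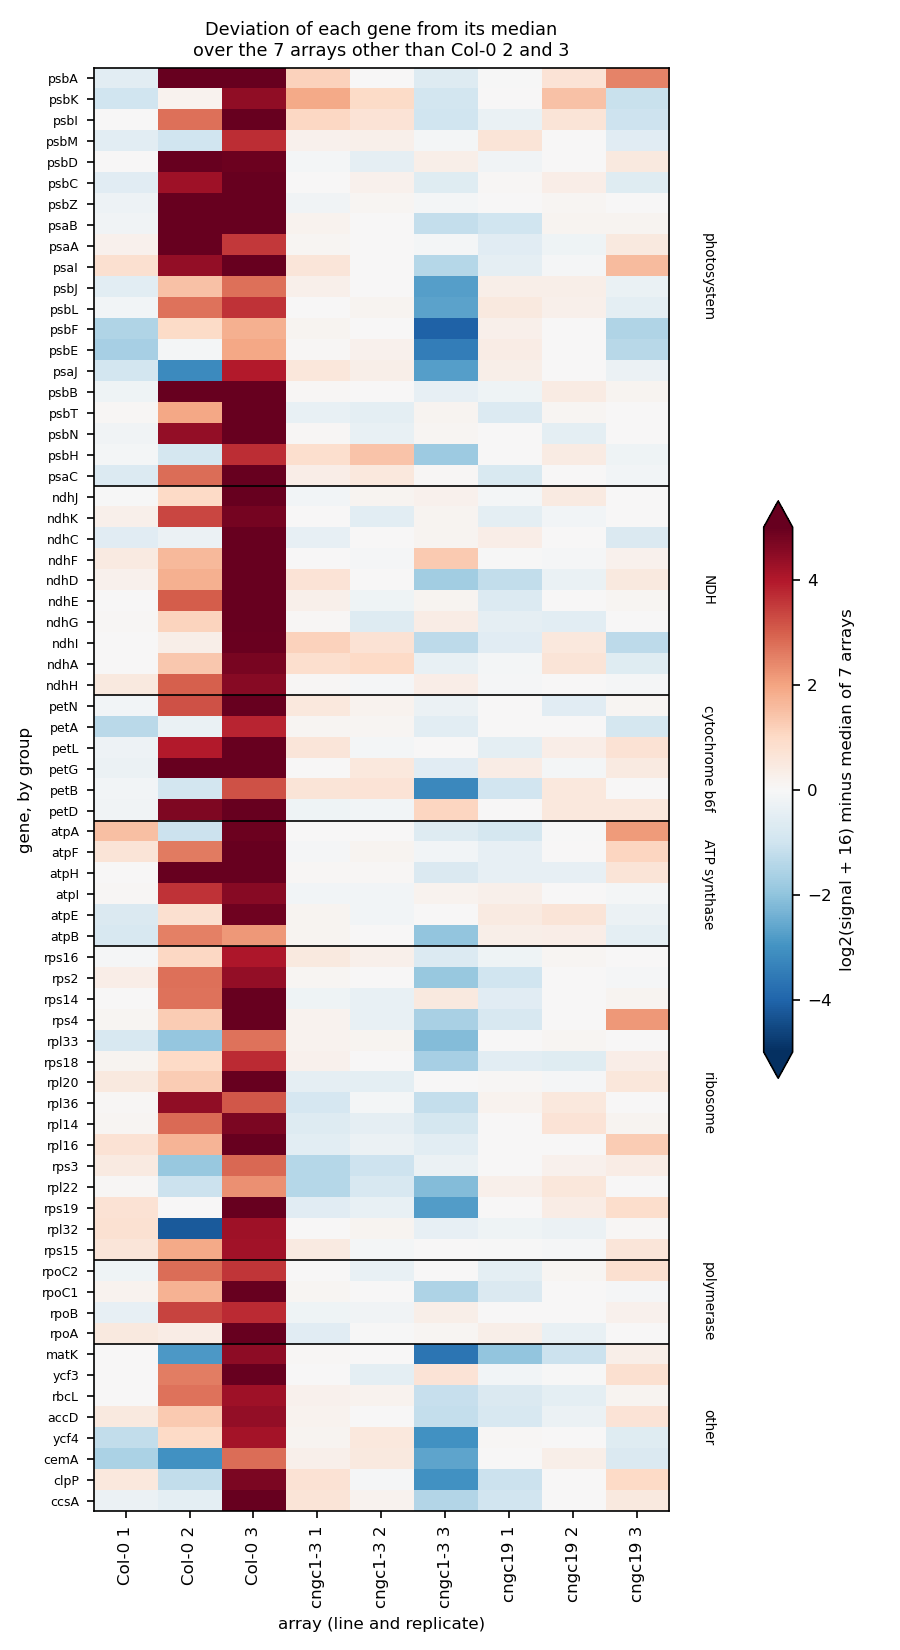
Deviation of each gene (rows, by group) on each array (columns) from the gene's median over 7 arrays (Col-0 replicates 2 and 3 not counted), on the log2(signal + 16) scale, with the colour saturated at 5 in either direction. Col-0 replicate 3 is red for all 69 genes, Col-0 replicate 2 is mixed, and the column of cngc1-3 replicate 3 is blue for many genes, such as psbF at -4.04 and matK at -3.66.

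Among photosystem genes, psbA encodes D1, a reaction centre protein of photosystem II. Its signal was 10.8, 1702 and 12170 on Col-0 replicates 1 to 3, 68.0, 22.1 and 8.16 on cngc1-3, and 21.6, 44.6 and 195 on cngc19. Col-0 replicates 2 and 3 were far above all others, while Col-0 replicate 1 lay inside the range of the mutant arrays. psbD and psbC encode the reaction centre protein D2 and the inner antenna protein CP43. For psbD the signals were 22.3, 4603 and 1093 on Col-0, 19.3, 11.8 and 30.6 on cngc1-3, and 17.3, 21.5 and 36.6 on cngc19. For psbC they were 23.5, 1065 and 4750 on Col-0, 42.2, 51.6 and 22.4 on cngc1-3, and 44.6, 57.6 and 22.4 on cngc19. Both genes were high on the same arrays, but in opposite order, psbD being higher on replicate 2 and psbC on replicate 3.

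The photosystem I core genes showed the same split between those arrays. psaA and psaB encode the reaction centre pair of photosystem I. psaA gave 19.3, 1406 and 336 on Col-0, 16.2, 14.5 and 12.3 on cngc1-3, and 4.48, 10.1 and 27.2 on cngc19. psaB gave 113, 4588 and 11490 on Col-0, 146, 129 and 47.7 on cngc1-3, and 57.4, 142 and 144 on cngc19. psaA was thus highest on Col-0 replicate 2 and its neighbour psaB on Col-0 replicate 3. psaC encodes the iron-sulphur subunit of photosystem I and gave 2.27, 189 and 2301 on Col-0, 21.9, 26.5 and 14.6 on cngc1-3, and 1.26, 13.6 and 11.1 on cngc19. All 3 cngc1-3 arrays were above all 3 cngc19 arrays for psaC, at signals below the median of each array.

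A set of neighbouring small photosystem II genes behaved differently. psbE and psbF encode the subunits of cytochrome b559, and psbL and psbJ lie beside them in the same operon. The signals of psbF were 252, 1451 and 2578 on Col-0, 811, 750.0 and 30.2 on cngc1-3, and 879, 742 and 254 on cngc19. Those of psbE were 121, 389 and 1651 on Col-0, 434 (replicate 1), 489 (replicate 2) and 23.3 (replicate 3) on cngc1-3, and 551, 418 and 148 on cngc19. For both genes cngc1-3 replicate 3 was the lowest array, and Col-0 replicate 1 and cngc19 replicate 3 lay close together below replicates 1 and 2 of both mutant lines. psbL gave 146 on Col-0 replicate 1 and 11.9 on cngc1-3 replicate 3, and psbJ gave 364 and 64.9 on those arrays. Both were again lowest on cngc1-3 replicate 3.

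psbM, a small subunit of the photosystem II dimer interface, gave 2151, 1543 and 40030 on Col-0, 3559, 3726 and 2876 on cngc1-3, and 4800, 3077 and 2075 on cngc19. It was bright on all 9 arrays and, unlike most members, lowest on Col-0 replicate 2. psaJ, a small photosystem I subunit, gave 144, 16.7 and 4688 on Col-0, 430 (replicate 1), 350.4 (replicate 2) and 28.5 (replicate 3) on cngc1-3, and 352, 284 and 227 on cngc19. It too was lowest on Col-0 replicate 2, next to cngc1-3 replicate 3, and far highest on Col-0 replicate 3. Over the 20 photosystem genes, 17 were highest on Col-0 replicate 3 and 3 on Col-0 replicate 2 (psbD, psaA and psbB).

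The NDH genes encode subunits of the chloroplast NADH dehydrogenase-like complex, which passes electrons to plastoquinone in cyclic electron flow around photosystem I. All 10 were highest on Col-0 replicate 3. For ndhG the signals were 19.0, 57.9 and 9115 on Col-0, 19.5, 5.50 and 27.5 on cngc1-3, and 9.00, 7.49 and 17.7 on cngc19. ndhE gave 11.5, 207 and 4202 on Col-0, 16.5, 7.38 and 13.8 on cngc1-3, and 0.870, 11.5 and 13.6 on cngc19. Both were dim on 7 arrays and bright on Col-0 replicate 3, with Col-0 replicate 2 in between.

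The neighbouring ndhI and ndhA were also highest on Col-0 replicate 3, but Col-0 replicate 2 was less distinct from the mutant arrays. ndhI gave 275, 340.3 and 8831 on Col-0, 633, 467 and 101 on cngc1-3, and 180.2, 402 and 102 on cngc19. ndhA gave 44.7, 138 and 1610 on Col-0, 92.7, 105 and 30.4 on cngc1-3, and 41.1, 78.3 and 23.6 on cngc19. For both genes replicate 3 was the lowest array of either mutant line, and the ranges of both mutant lines overlapped. ndhC, which lies in another operon, gave 237, 287 and 12990 on Col-0, 268, 363 and 398 on cngc1-3, and 453, 358 and 208 on cngc19. On Col-0 replicate 2 it was within the range of the mutant arrays, so it was high on Col-0 replicate 3 alone.

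Cytochrome b6f links both photosystems by moving electrons from plastoquinol to plastocyanin. petG, a small subunit, gave 5.44, 2333 and 1774 on Col-0, 10.5, 22.4 and 2.03 on cngc1-3, and 18.6, 8.68 and 20.4 on cngc19. petA, the gene of cytochrome f, gave 220.5, 471 and 8378 on Col-0, 632, 629 and 405 on cngc1-3, and 593, 598 and 312 on cngc19. petB, the gene of cytochrome b6, gave 644, 365 and 6416 on Col-0, 1100 (replicate 1), 1148 (replicate 2) and 60.9 (replicate 3) on cngc1-3, and 359, 1003 and 701 on cngc19. The small-subunit gene was high on both Col-0 replicates 2 and 3, while petA and petB were high on replicate 3 alone. petN, petL and petD followed petG, with deviations of 3.19, 3.97 and 4.67 on Col-0 replicate 2 and 6.42, 7.09 and 5.20 on Col-0 replicate 3.

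The ATP synthase genes encode subunits of the thylakoid enzyme that makes ATP from the proton gradient. atpH, the gene of the membrane ring subunit, gave 15.8, 5345 and 6712 on Col-0, 16.6, 17.5 and 3.42 on cngc1-3, and 7.96, 7.77 and 33.2 on cngc19. atpB, the gene of the catalytic beta subunit, gave 857, 8646 and 6834 on Col-0, 1657, 1513 and 371 on cngc1-3, and 1882, 1910 and 1091 on cngc19. atpE, its neighbour, gave 861, 2513 and 41830 on Col-0, 1569, 1315 and 1432 on cngc1-3, and 1954, 2235 and 1161 on cngc19. All 3 were higher on Col-0 replicates 2 and 3 than on every other array, and atpB and atpE were lower on Col-0 replicate 1 than on replicates 1 and 2 of both mutant lines. atpA, the gene of the alpha subunit, gave 323, 41.3 and 3654 on Col-0, 106, 105 and 60.7 on cngc1-3, and 50.4, 103 and 517 on cngc19. Unlike them it was lowest of all on Col-0 replicate 2.

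The polymerase genes rpoA, rpoB, rpoC1 and rpoC2 encode the core of the plastid-encoded RNA polymerase. rpoA gave 268, 246 and 10160 on Col-0, 119.8, 184 and 201 on cngc1-3, and 235, 142 and 187 on cngc19. rpoC1 gave 50.3, 179 and 6444 on Col-0, 46.6, 44.1 and 4.11 on cngc1-3, and 19.7, 42.9 and 40.4 on cngc19. All 4 polymerase genes were highest on Col-0 replicate 3, and on Col-0 replicate 2 their deviations ranged from 0.37 for rpoA to 3.38 for rpoB.

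The 8 other genes have separate roles. rbcL, the large subunit of the carbon-fixing enzyme Rubisco, gave 40.2 (replicate 1), 352 (replicate 2) and 1050 (replicate 3) on Col-0, 49.9, 47.0 and 9.02 on cngc1-3, and 18.1, 24.2 and 45.4 on cngc19. clpP, a protease subunit, gave 732 (replicate 1), 199 (replicate 2) and 13310 (replicate 3) on Col-0, 843, 483 and 47.4 on cngc1-3, and 224 (replicate 1), 497 (replicate 2) and 999.6 (replicate 3) on cngc19. matK, an intron maturase, gave 574, 62.3 and 12780 on Col-0, 588, 564 and 30.0 on cngc1-3, and 129.8, 257 and 688 on cngc19. matK and clpP were low on Col-0 replicate 2 and lowest of all on cngc1-3 replicate 3, whereas rbcL was raised on Col-0 replicate 2. cemA, an inner envelope protein, gave 116 (replicate 1), 32.1 (replicate 2) and 2728 (replicate 3) on Col-0, 450 (replicate 1), 540.0 (replicate 2) and 48.3 (replicate 3) on cngc1-3, and 380 (replicate 1), 463 (replicate 2) and 224 (replicate 3) on cngc19. It was lowest on Col-0 replicate 2. accD (a subunit of acetyl-CoA carboxylase, the first enzyme of fatty acid synthesis), ccsA (c-type cytochrome assembly), ycf3 and ycf4 (photosystem I assembly) were also highest on Col-0 replicate 3, with deviations of 4.38, 5.92, 5.88 and 4.15.

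Among ribosomal protein genes, rpl32 showed the widest gap between Col-0 replicates 2 and 3 of all 69 members. It gave 533, 1.49 and 6027 on Col-0, 303, 335 and 225 on cngc1-3, and 262 (replicate 1), 242 (replicate 2) and 316 (replicate 3) on cngc19. Col-0 replicate 2 was its lowest array and Col-0 replicate 3 its highest, with a difference of -8.43 (replicate 2 minus replicate 3). rps15, at the end of the gene cluster that holds ndhI and ndhA, gave 30.7, 97.9 and 539 on Col-0, 24.7, 12.4 and 14.3 on cngc1-3, and 14.1, 13.0 and 29.5 on cngc19. It followed the common order, with Col-0 replicate 3 highest and replicate 2 next.

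Over the members, log2 signals of Col-0 replicate 2 correlated with the other 8 arrays at r = 0.085 to 0.208, and those of Col-0 replicate 3 with the 7 arrays at r = 0.56 to 0.677 (69 genes, which share operons and are not independent). For Col-0 replicate 1 and cngc19 replicate 3 together r was 0.941. Chloroplast genes on Col-0 replicate 3 thus correlated with the 7 arrays more closely than those on Col-0 replicate 2. Over all probe sets r was 0.16 to 0.308 for Col-0 replicate 2 and 0.508 to 0.572 for Col-0 replicate 3. The pattern was therefore not particular to the chloroplast genes. The genes highest on Col-0 replicate 2 were psbD, psaA, atpB, petG, psbB (CP47, the other inner antenna protein) and rpl36, 6 of 69 against 40.8% of all probe sets. Those lowest on it were atpA, psbM, cemA, psaJ, rps3 and rpl32, 6 of 69 against 21.2% of all probe sets. Since Col-0 replicate 3 was highest for 63 of the 69, few members could be highest on replicate 2.

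**Figure D3:**
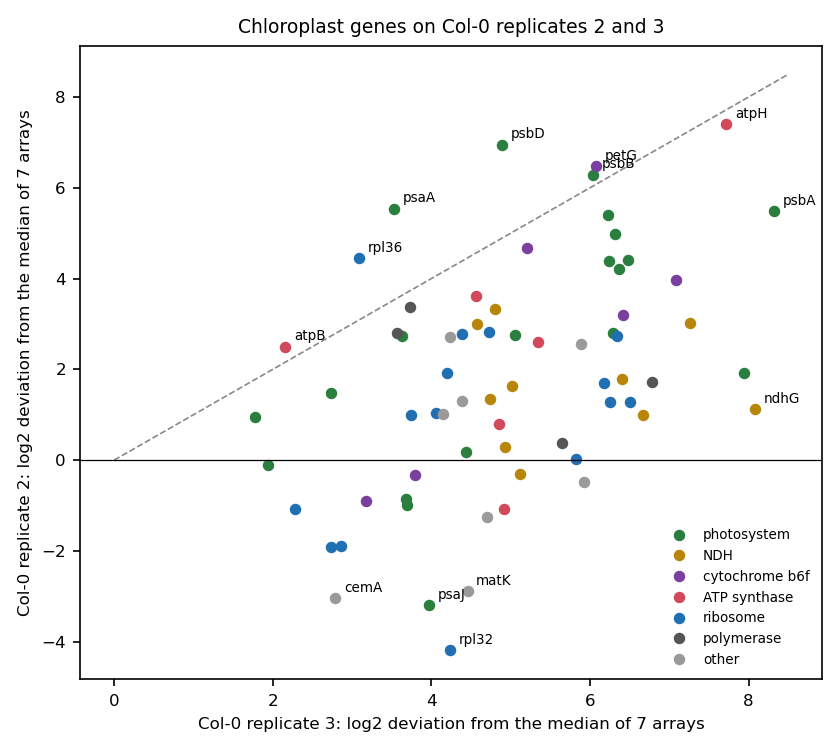
Deviation of each gene on Col-0 replicate 2 (vertical) against that on Col-0 replicate 3 (horizontal), each from the gene's median over the other 7 arrays, on the log2(signal + 16) scale, coloured by gene group. The dashed line marks equal deviation: 6 genes lie above it, and 16 genes lie at or below 0 on the vertical axis while all 69 are above 0 on the horizontal one.

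On cngc1-3 replicate 3, the array with the highest 3'/5' ratios, 31 of the 69 genes had their lowest signal, against 9.14% of all probe sets. Of those 31, 9 were photosystem genes, 9 ribosomal, 6 in the other group, 2 each in ATP synthase, cytochrome b6f and NDH, and 1 a polymerase gene. The deviation was below -1 for 27 of the 69, among them 7 of the 8 others, 7 of 15 ribosomal genes and 8 of 20 photosystem genes, but 2 of 10 NDH genes. The median deviation was -0.60 over the 69 genes and 0.08 over all probe sets. It was -2.03 in the other group, -0.87 in the ribosome group and 0.15 in the NDH group. The part of the 3'/5' ratio in these low signals was not tested.

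Nuclear photosynthesis genes were examined beside the chloroplast genes, since shoot is the other tissue that a root sample could hold. Of 53 listed nuclear photosystem and antenna genes, 6 had a probe set. Their summed signal was 137, 758 and 22860 on Col-0 replicates 1 to 3, 571, 556 and 833 on cngc1-3, and 1052, 919 and 184 on cngc19. They were highest by far on Col-0 replicate 3, as the chloroplast genes were, and lowest on Col-0 replicate 1 and cngc19 replicate 3, where the median chloroplast gene was not low. No detection calls were used, so these signals do not tell on which arrays the 6 genes were expressed. PSAN, a photosystem I subunit, gave 21.5, 169.6 and 2058 on Col-0 and 23.04 to 158 on the mutant arrays. PSBY, of photosystem II, gave 17.5, 157 and 2196 on Col-0 and 34.1 to 146 on the mutant arrays. The antenna gene LHCB4.2 gave 3.81, 27.9 and 3751 on Col-0 and 0.979 to 80.0 on the mutant arrays. All 3 were highest on Col-0 replicate 3, whereas the antenna gene LHCB4.3, with 20.8, 221 and 196 on Col-0 and 28.3 to 63.96 on the mutant arrays, was highest on Col-0 replicate 2. The part of shoot tissue in the chloroplast signal of Col-0 replicate 3 was not tested.

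Of 34 listed nuclear electron transport, ATP synthase and Calvin cycle genes, 7 had a probe set, and their median deviation was -1.24, 0.88 and 3.41 on Col-0 replicates 1 to 3 and -0.98 on cngc19 replicate 3. PRK, the phosphoribulokinase of the Calvin cycle, gave 6.25, 366 and 1441 on Col-0, against 13.5 to 123 on the mutant arrays. RCA, Rubisco activase, gave 31.2, 258 and 1171 on Col-0 and 32.8 to 235 on the mutant arrays. SBPASE, the sedoheptulose bisphosphatase of the Calvin cycle, gave 4.78, 159 and 1617 on Col-0. TPI (triose phosphate isomerase) differed, with 2184, 68.6 and 864 on Col-0 and 2272 to 3146 on the mutant arrays. It was listed by its symbol, and whether this gene encodes the plastid form of the enzyme was not checked. The 3 Calvin cycle genes were highest on Col-0 replicate 3, while TPI was lowest on Col-0 replicate 2.

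The nuclear partners of the NDH complex and of plastid RNA processing stood out more on Col-0 replicate 2. For NDH subunits, assembly and RNA processing, 6 of 46 listed genes had a probe set. Their median deviations were 3.17 on Col-0 replicate 2 and 2.38 on Col-0 replicate 3. NdhN, the only NDH subunit among the 6, gave 9.76, 392 and 261 on Col-0 and 14.5 to 61.0 on the mutant arrays. The 4 of 70 listed factors of plastid transcription and RNA processing, all RNA-binding pentatricopeptide repeat proteins (LPA66, OTP84, OTP85 and OTP86), had medians of 2.28 and 1.21 on those arrays. FUG1, a plastid translation initiation factor and the only 1 of 62 listed nuclear genes of plastid translation with a probe set, gave 54.7, 124 and 553 on Col-0 and 53.1 to 136 on the mutant arrays. Chloroplast ndh genes were higher on replicate 3, while the median of the 6 listed nuclear genes was higher on replicate 2, though not each of them. limma called 0 genes of these lists and of the root markers in any comparison, though only 2 of the 6 NDH partners and 2 of the 4 RNA factors passed the filter and were tested. Their median differences for cngc1-3 and then cngc19 against Col-0 were -1.11 and -1.29 for nuclear photosystem genes, -0.08 and -0.40 for electron transport and the Calvin cycle, -1.56 and -1.47 for NDH partners, -1.03 and -1.15 for RNA factors, -0.79 and -0.96 for FUG1, and 0.58 and 0.62 for the root markers. Between both mutant lines they lay between -0.04 and 0.17.

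The first comparison asked which transcripts differ between cngc1-3 and the wild type. With all arrays, the mean of cngc1-3 was below that of Col-0 for 69 of 69 chloroplast genes, or 67 of 69 when each array was centred on its median and 68 after quantile normalization. The median difference was -2.49, against -0.42 over all probe sets, which put the members at -2.07 relative to all probe sets, both as deposited and after median centring. In 15 of the 69 every cngc1-3 array was below every Col-0 array as deposited, against 14.3% of all probe sets. The number was 9 after quantile normalization and 6 after median centring. No share of all probe sets was taken under these scalings, so these counts are not read as a trait of the members. By group, the medians were -3.02 for the photosystems and for cytochrome b6f, -2.99 for the ribosome, -2.52 for NDH, -2.38 for ATP synthase, -2.30 for the polymerase and -2.10 for the others.

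No chloroplast gene passed the test in this comparison. With limma on 13648 probe sets, 0 were called at an adjusted p under 0.05 (0.0%), 3301 had an unadjusted p under 0.05 (24.2%), and of the 64 members tested 0 were called and 37 had an unadjusted p under 0.05. Of those 64, only 41 passed the filter on low signal with Col-0 replicates 2 and 3 set aside, so the others were tested because they were high on those arrays. The smallest unadjusted p of the members belonged to rpl36, a protein of the large ribosomal subunit, at -3.24 ± 0.87 (SE, n = 3 arrays a line, limma adjusted p 0.181), then rpl14 at -3.20 ± 0.88 and psaI, a photosystem I subunit, at -4.18 ± 1.17, with the same adjusted p. limma with array weights called 1228 probe sets, 3.38% of those tested being lower in cngc1-3, and 42 members, all 42 lower. Leaving out Col-0 replicate 1, so that only Col-0 replicates 2 and 3 stood for the wild type, called 4938. Of those tested 17.8% were lower, and 43 members were called, all 43 lower. Members tested only because they were high on Col-0 replicates 2 and 3 are among the called under both settings. Leaving out Col-0 replicates 2 and 3 instead moved the median to -0.04, the same as over all probe sets, with 33 members higher, 36 lower and 0 called by limma (4 at an unadjusted p under 0.05, against 8.61% of probe sets tested).

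With that single Col-0 array the gene groups divided. The difference was negative for 13 of 15 ribosomal genes (median -0.77), and in 10 of the 15 Col-0 replicate 1 lay above all 3 cngc1-3 arrays, against 32.2% of all probe sets. It was positive for 13 of 20 photosystem genes (median 0.20) and 5 of 6 cytochrome b6f genes (median 0.34). psbK, a small photosystem II subunit, gave 61.5, 159 and 3304 on Col-0, 549.9, 283 and 64.6 on cngc1-3, and 138, 410.5 and 54.4 on cngc19. Col-0 replicate 1 was below all 3 cngc1-3 arrays, by a narrow margin to replicate 3, and above cngc19 replicate 3. The 6 nuclear photosystem genes moved with the photosystem group, all 6 being higher in cngc1-3 than on Col-0 replicate 1 (median 1.50), and their part in it was not tested. A single array has no spread of its own, so these differences were not tested over Col-0 tubes.

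The second comparison asked the same of cngc19 and used the same Col-0 arrays, so its values are not independent of those above. The mean of cngc19 was below that of Col-0 for 66 of 69 genes (62 after median centring), the exceptions being cemA, psaJ and rpl33 at 0.46, 0.04 and 0.02. The median difference was -2.28 against -0.38 over all probe sets, and 8 of 69 showed no overlap with cngc19 lower, against 11.9% of all probe sets. Group medians ran from -3.14 for the photosystems and -3.10 for cytochrome b6f to -1.69 for the others. NDH had 4 of its 10 genes without overlap (ndhK, ndhF, ndhG and ndhH), all at low signals or by a narrow margin to Col-0 replicate 1. On that array ndhF gave 7.32, ndhH 8.46 and ndhG 19.0, against at most 3.885, 1.49 and 17.7 on cngc19. ndhF and ndhH were under the filter on low signal and were not tested.

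In this comparison too no chloroplast gene passed. limma called 0 of 13648 probe sets (0.0%), with 2464 at an unadjusted p under 0.05 (18.1%), and 0 of 64 members, with 33 at an unadjusted p under 0.05. The smallest p-values belonged to ndhK, an NDH subunit, at -3.01 ± 0.89 (SE, n = 3 arrays a line, limma adjusted p 0.273), atpH at -5.11 ± 1.55 and rps2, of the small ribosomal subunit, at -2.84 ± 0.89, all with that adjusted p. For ndhK the signals were 18.8, 277 and 789.7 on Col-0, 13.0, 4.40 and 16.2 on cngc1-3, and 4.87, 10.2 and 13.0 on cngc19. All cngc19 arrays were below all Col-0 arrays, with Col-0 replicate 1 close to them. Array weights called 1047 probe sets, 2.6% of those tested being lower in cngc19, and 39 members, all 39 lower. Leaving out Col-0 replicate 1, so that only Col-0 replicates 2 and 3 stood for the wild type, called 4603. Of those tested 16.2% were lower, and 39 members were called, all 39 lower. Here too only 41 of the 64 members passed the filter with Col-0 replicates 2 and 3 set aside. Members tested only because they were high on those arrays are among the called, so these counts are no support for a difference. Without Col-0 replicates 2 and 3 the median was 0.00 against -0.04 over all probe sets, with 34 higher, 35 lower and 0 called by limma (2 at an unadjusted p under 0.05, against 2.63% of probe sets tested). NDH genes then had a median of -0.39, with 8 of 10 lower in cngc19.

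Col-0 replicate 1 was also set against replicates 1 and 2 of both mutant lines. For 20 of the 69 genes (29.0%) it was below all 4 arrays, against 24.2% of all probe sets, and for 18 (26.1%) it was above all 4, against 39.0%. Photosystem and ATP synthase genes were found on both sides, atpB, atpE, psbE and psbF below and atpA, atpF, psbD and psaA above. For 15 of the 69 (21.7%) cngc19 replicate 3 was below those 4 arrays as well, against 16.5% of all probe sets, and for 13 of the 69 (18.8%) both arrays were above the 4, against 28.9%. The 15 were psbC, psbE, psbF, psbH, psbJ, psbK, psbL, psbM, psaJ, ndhC, atpB, atpE, petA, cemA and ycf4. For petA the 4 arrays gave 593 to 632, and Col-0 replicate 1 and cngc19 replicate 3 gave 220.5 and 312. In petA a wild-type and a mutant array were thus low together. Leaving out Col-0 replicates 2 and 3 and replicate 3 of both mutant lines, limma called 19 of 41 members tested for cngc1-3 (14 higher, 5 lower), against 11.4% higher and 14.3% lower of all probe sets tested. For cngc19 it called 20 of 41 (14 higher, 6 lower), against 11.2% and 13.1%. The lone Col-0 array is assumed here to vary like the mutant arrays.

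The third comparison set both mutant lines against each other and used no Col-0 signal in its means. The members differed little as a whole: the median was -0.15, against -0.01 over all probe sets, with 22 higher and 47 lower in cngc1-3 (28 and 41 after median centring). Without replicate 3 of both lines the median was 0.13, with 42 higher and 27 lower. By group the medians were -0.65 for the ribosome, -0.25 for ATP synthase, -0.23 for the others, -0.18 for the polymerase, -0.11 for the photosystems, -0.07 for cytochrome b6f and 0.19 for NDH. Of 10 NDH genes 9 had a higher mean in cngc1-3, from 0.01 for ndhD to 0.64 for ndhI, and the arrays of both lines overlapped for all 10.

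On the deposited scale, every gene with cngc1-3 below cngc19 on all arrays encoded a ribosomal protein, and all of them lay side by side. These were 6 of the 69 genes, against 3.53% of all probe sets: rpl36, rpl14, rpl16, rps3, rpl22 and rps19. They are the only genes with a member probe set between rpl36 and rps19 in the RefSeq gene order (assembly TAIR10.1). In land plant plastids these genes belong to a ribosomal protein operon like the S10 and spc operons of bacteria, with rpoA at its end. 1 gene had all cngc1-3 arrays above all cngc19 arrays, psaC, against 4.69% of all probe sets. The 9 other ribosomal protein genes showed overlap in all 9, with a median of -0.22 against -1.03 for the 6. The 6 were picked from these same values for showing no overlap. This contrast therefore follows from the choice and is no support for a difference of the stretch.

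**Figure D4:**
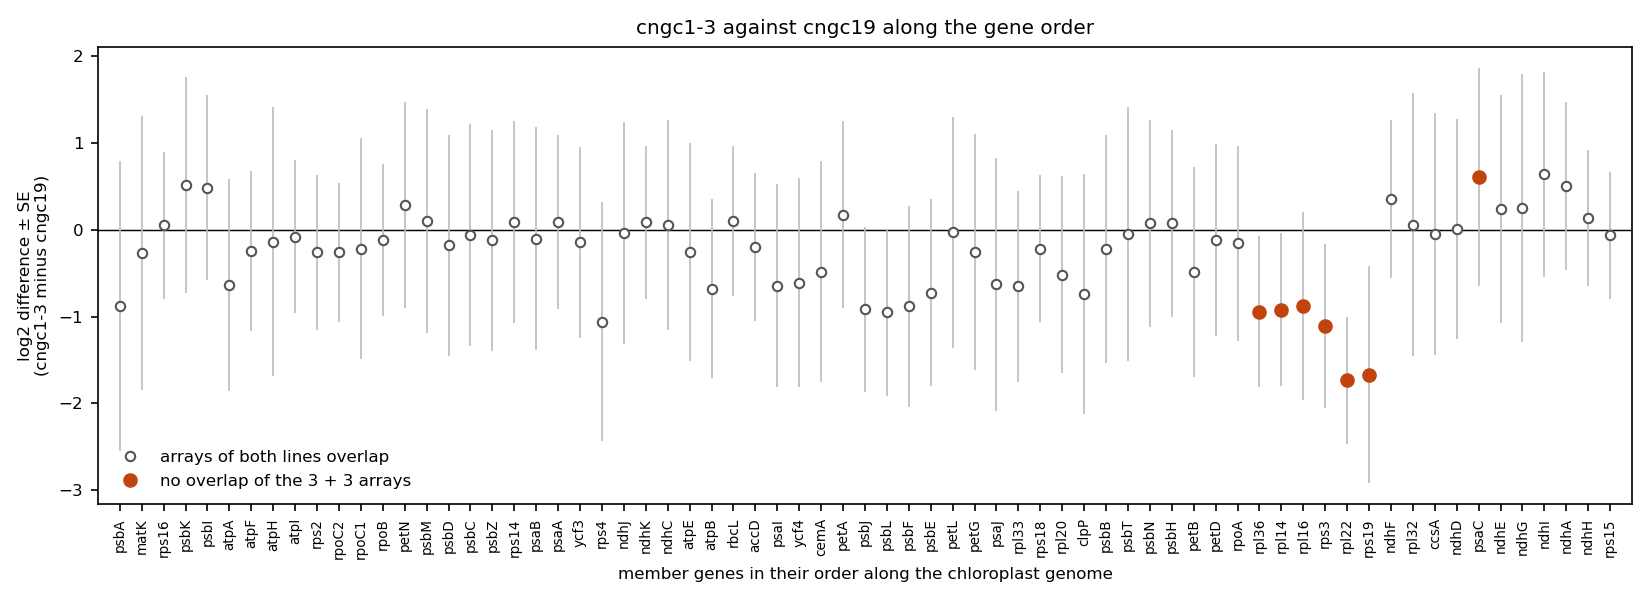
Difference between cngc1-3 and cngc19 (log2 scale, mean of 3 arrays minus mean of 3, bars ± SE from the fit over all 9 arrays) for the 69 genes in their order along the chloroplast genome. Filled points are genes whose 3 arrays of one line did not overlap the 3 of the other: the run from rpl36 to rps19, between -0.88 and -1.73, and psaC at 0.61.

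rpl22, a protein of the large ribosomal subunit, gave 65.4, 107 and 32.0 on cngc1-3, 239.5, 302 and 199.9 on cngc19, and 211, 86.7 and 1034 on Col-0. rps3, of the small subunit, gave 144, 190.5 and 335 on cngc1-3, 411, 474 (replicate 2) and 542 on cngc19, and 557, 98.3 and 3077 on Col-0. rps19, also of the small subunit, gave 112, 132 (replicate 2) and 11.9 on cngc1-3, 175, 234 and 337 on cngc19, and 298, 179.5 and 10760 on Col-0. In these 3 genes all cngc1-3 arrays were also below Col-0 replicate 1, which lay among the cngc19 arrays for rpl22 and rps19 and just above them for rps3. The lowest signals of rpl22 and rps19 were those of cngc1-3 replicate 3, the array with the highest 3'/5' ratios.

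rpl16 gave 8.26, 12.7 and 8.59 on cngc1-3, 19.8, 19.1 and 68.5 on cngc19, and 42.3, 97.3 and 2520 on Col-0. rpl14 gave 7.76, 11.3 and 4.25 on cngc1-3, 21.0, 43.2 and 24.7 on cngc19, and 23.5, 247 and 961 on Col-0. Both genes were dim, with every cngc1-3 signal below the median of its array. The cngc19 signals were below it too, apart from rpl16 on replicate 3 and rpl14 on replicate 2. Without replicate 3 of both mutant lines the difference of rpl16 was -0.42 in place of -0.88. rpl36 gave 25.6, 54.7 and 16.4 on cngc1-3, 67.4, 92.9 and 58.8 on cngc19, and 61.7, 1619 and 620.3 on Col-0. In these 3 genes of the large subunit too every cngc1-3 array was below Col-0 replicate 1, and for rpl36 the gap between both mutant lines was narrow, from 54.7 to 58.8. The next gene with a probe set on the other side, rpoA, overlapped between both mutant lines, with a difference of -0.15.

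**Figure D5:**
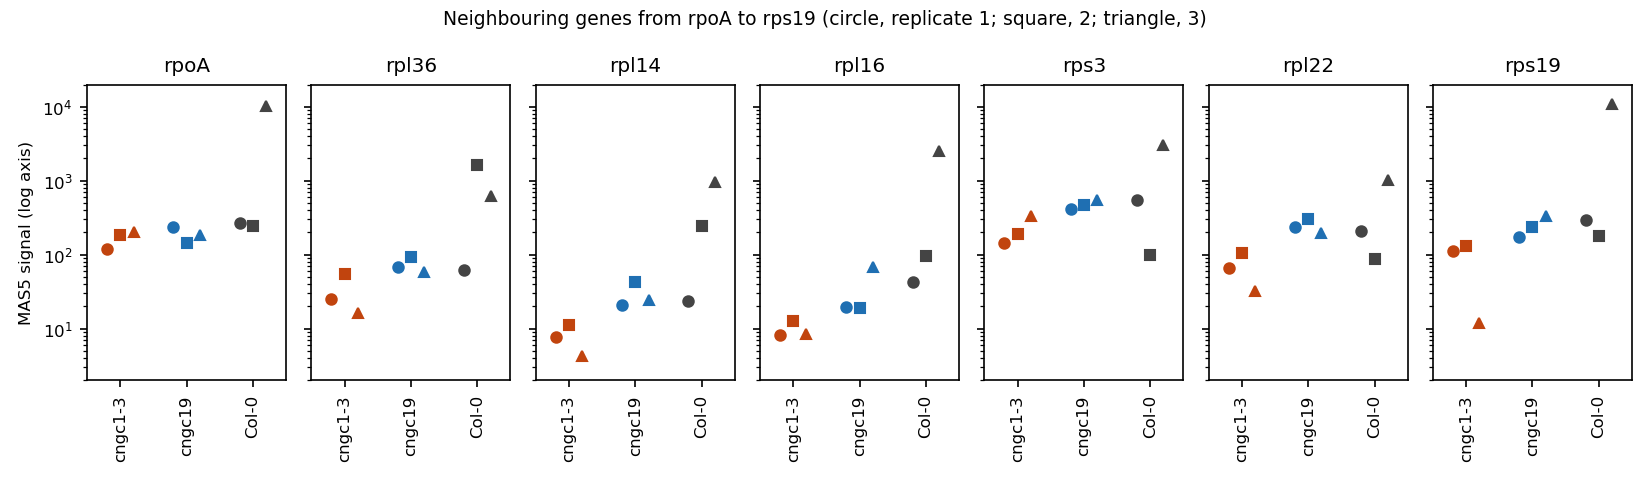
MAS5 signal (log axis) on each array for rpoA and the 6 ribosomal protein genes from rpl36 to rps19, a panel per gene, grouped by line. In the 6 ribosomal panels all cngc1-3 points lie below all cngc19 points, for rpl22 at 32.0 to 107 against 199.9 to 302, while in the rpoA panel they overlap.

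None of these differences passed the test. limma called 0 of 13648 probe sets (0.0%) between both mutant lines, 13 had an unadjusted p under 0.05 (0.0953%), and rpl22 was the only member among those 13, at -1.73 ± 0.73 (SE, n = 3 arrays a line, unadjusted limma p 0.0368, adjusted p 1.00). rps19 stood at -1.67 ± 1.25, rps3 at -1.11 ± 0.95, rpl36 at -0.94 ± 0.87, rpl14 at -0.92 ± 0.88 and rpl16 at -0.88 ± 1.08, each with an adjusted limma p of 1.00. The standard errors include the spread of the Col-0 arrays, which share the model. With array weights limma called 9 probe sets (0.0659%), among them rpl22 (-1.68, adjusted p 0.0127), where 0.044% of those tested were lower. Leaving out Col-0 replicates 2 and 3 and replicate 3 of both mutant lines, it called 107 (0.784%), among them rps3 (-1.33, adjusted p 0.00775), rpl22 (-1.51, adjusted p 0.00854) and matK, which was higher in cngc1-3. Leaving out Col-0 replicates 2 and 3 alone called 0 probe sets with limma, with 4 members at an unadjusted p under 0.05 against 1.73% of probe sets tested. The count of 6 without overlap was 5 after quantile normalization and 5 after median centring, as rpl36 overlapped in both. After quantile normalization rpl20, which lies outside this stretch, was also lower without overlap (-0.47), and psaC overlapped. No share of all probe sets was taken under these scalings.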

How the data were processed

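The deposited table holds signal intensities on a linear scale for 22810 probe sets, which the authors made with GCOS and MAS5, per the submitters' processing notes; the authors' further steps are not given in the sources used here. The 64 control probe sets were left out. The platform's annotation named 13513 probe sets with 1 symbol, 503 with several, and left 8730 unnamed here, and symbols and gene order came from RefSeq (TAIR10.1). Titles gave line and replicate.

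Signals were analysed as log2(signal + 16). The 13648 probe sets whose mean reached the 40th percentile were tested with limma 3.58.1 in R 4.3.3 (lmFit, eBayes with trend, all 9 arrays, line as the only term, two-sided), with Benjamini-Hochberg adjustment over all of them at 0.05. This procedure was tested on simulated data. Other steps used Python 3.11.15 with pandas 2.3.3, numpy 2.4.6 and matplotlib 3.10.9. Of the 69 members 64 passed the filter, and atpI, rpoB, ndhJ, ndhF and ndhH did not. The number of arrays limits the precision, and no detection calls were used.

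All members may be named, and of each list of nuclear genes up to 4 with the smallest unadjusted p in any comparison. Members and lists were chosen with earlier results of these data known. The stretch from rpl36 to rps19 was picked after its values were seen. Alternatives were pseudocounts 1 and 64, no filter or the 60th percentile, quantile normalization, median centring, eBayes without trend or robust, array weights (whose estimation stopped before its convergence tolerance), a threshold of 0.1, a replicate block, a fit of only the pair of lines compared, and arrays left out. Deviations of same-numbered arrays from their line means correlated at -0.234 to 0.19, and those of differently numbered arrays at -0.229 to 0.242. Col-0 replicates 2 and 3 stand apart and shift the Col-0 mean, so this check cannot tell whether the numbers pair the samples. No pairing was used in the main fit.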

Additional observations from a re-analysis of the deposited data

How the results depend on the processing

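With 0 calls in each comparison as reported, limma with array weights called 1228 probe sets (42 chloroplast genes) for cngc1-3 against Col-0, 1047 (39) for cngc19 against Col-0 and 9 (1) for cngc1-3 against cngc19. Leaving out Col-0 replicates 2 and 3 and replicate 3 of both mutant lines gave 3507 (19), 3312 (20) and 107 (3), and leaving out replicate 3 of both mutant lines gave 1 for cngc19 against Col-0. Leaving out arrays singly gave 0 to 4938 calls (0 to 43 chloroplast genes) for cngc1-3 against Col-0 and 0 to 4603 (0 to 39) for cngc19 against Col-0, the highest without Col-0 replicate 1 and 12 and 11 without cngc19 replicate 3, and 0 throughout between both mutant lines. The other settings, a threshold of 0.1 among them, called 0 in each comparison, and so did the replicate block, with 3171, 2476 and 15 probe sets at an unadjusted p under 0.05. The median chloroplast difference ranged from -3.74 to -1.25, from -3.46 to -1.04 and from -0.32 to 0.03 with arrays left out singly. Without Col-0 replicates 2 and 3 it was -0.04 and 0.00 against Col-0, and without replicate 3 of both mutant lines as well it was 0.04 and -0.07. The cause of these changes was not tested. Some chloroplast genes called with array weights or without Col-0 replicate 1 passed the filter only through Col-0 replicates 2 and 3. The named genes of smallest p and the 7 without overlap between the mutant lines gave 284 alternative values, of which 0 reversed and 15 passed the threshold. These genes were picked from the same data. For the 7 without overlap, leaving out arrays could not reverse the sign, and several settings left the differences unchanged. A gene under the filter of a setting gave no value there. The count of reversals is therefore no support for the differences. Against Col-0 the comparisons rest on 1 array that resembles the mutant arrays and 2 that do not, which these 9 arrays cannot resolve. Differences of the 5 members under the filter on low signal were given no test.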

Other observations

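The 8 probe sets annotated to several chloroplast loci, which the 69 members leave out, deviated from their median over the 7 arrays by 4.57 on Col-0 replicate 2 and 3.96 on Col-0 replicate 3 at the median. On Col-0 replicate 2 their range was 2.29 to 6.66, where the 69 members ranged from -4.19 to 7.40 with a median of 1.73. On cngc1-3 replicate 3 their median was -0.96, and it was -0.10 to 0.36 on the remaining 6. No explanation was tested.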
